A study of Rattus norvegicus with 24 samples.

Results

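Mylk, Elavl1, Maip1, Hmces, Setd1b, Ncaph, Prss35, Grifin, Cidea and Tstd1 were the 10 named genes with the largest falls in the rostral ventrolateral medulla (RVLM) of the spontaneously hypertensive rat (SHR). They were taken from 14217 genes with a single-gene probe set on the array, and 13 probe sets carry one of the 10 symbols alone. The values that chose them were the log2 differences in intensity, SHR minus Wistar-Kyoto (WKY), among genes called lower whose groups did not overlap. Genes with a placeholder symbol (LOC or RGD followed by digits) were left out of that ranking. All 10 were called lower by that choice, which 0.893% of the 10415 tested genes were, and 1.90% of them had SHR values all below WKY. Mylk, at −1.22, was the last gene inside and Ptgr1, at −1.20, the first outside. Every value from the RVLM arrays is therefore a description of the choice and carries no test for these genes. The remaining question was whether 3 other structures of SHR rats had the level of the SHR medulla for the same genes.

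The arrays came from male rats of 10 to 13 weeks (10 to 12 weeks for 1 NIL array), and each array measured RNA pooled from 5 rats. The hypertensive SHR strain supplied 5 arrays of the pituitary's neurointermediate lobe (NIL), 5 of the hypothalamic paraventricular nucleus (PVN), 4 of the hypothalamic supraoptic nucleus (SON) and 5 of the RVLM. From WKY, the normotensive strain used as its control, there were 5 arrays of the RVLM. No group received a treatment, per the labels. WKY arrays of the NIL, PVN and SON were not analysed here, so strain and structure cannot be told apart when those structures are set against WKY RVLM. Each pool was counted as 1 replicate, the number of arrays limits the precision, and p-values measure the spread between pools.

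The RVLM holds the neurons that drive sympathetic outflow to the vessels, vasopressin and oxytocin neurons have their cell bodies in the PVN and SON, and their endings lie in the NIL beside melanotrophs and pituicytes. SHR and WKY are inbred strains with many sequence differences. A probe set of this array type is a group of short probes near one end of a transcript, so a sequence difference under the probes, another transcript end and a change in RNA abundance can all alter its intensity, and only genes with several probe sets offer a comparison. The 10 genes belong to no single pathway. Tstd1 encodes a small rhodanese-like enzyme of sulfur transfer and Cidea a protein that enlarges lipid droplets, known best from brown fat of mice. Grifin is a galectin relative known from the lens, and Prss35 a secreted protein of the serine protease family that lacks the catalytic serine. Ncaph is the kleisin subunit of condensin, Setd1b a methyltransferase of lysine 4 of histone H3, and Hmces a protein that crosslinks to abasic sites in single-stranded DNA. Maip1 is a mitochondrial partner of the m-AAA protease that assists assembly of the calcium uniporter, Elavl1 (HuR) a protein that binds AU-rich messages, and Mylk the kinase of myosin light chain.

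Over all 24 arrays Maip1 followed Grifin most closely (r = 0.87), and over the 14 arrays outside the RVLM r was 0.46. Promoter sequences of Tstd1, Grifin and Maip1 are shown, Tstd1 because it had the largest difference and Grifin and Maip1 for that correlation. Each is the 250 bases before the RefSeq start, on GRCr8, read 5′ to 3′ on the strand of the gene, and all 3 genes lie on the plus strand: Tstd1 at chr13:86385429-86385678, Grifin at chr12:19194579-19194828 and Maip1 at chr9:66472909-66473158. Capitals mark GGGCGG, the core of a GC box, or its reverse complement.
Tstd1: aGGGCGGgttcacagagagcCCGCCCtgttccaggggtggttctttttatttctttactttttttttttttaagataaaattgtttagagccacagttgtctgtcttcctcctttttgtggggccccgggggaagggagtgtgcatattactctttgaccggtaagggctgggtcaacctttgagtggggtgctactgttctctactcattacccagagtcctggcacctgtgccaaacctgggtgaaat
Grifin: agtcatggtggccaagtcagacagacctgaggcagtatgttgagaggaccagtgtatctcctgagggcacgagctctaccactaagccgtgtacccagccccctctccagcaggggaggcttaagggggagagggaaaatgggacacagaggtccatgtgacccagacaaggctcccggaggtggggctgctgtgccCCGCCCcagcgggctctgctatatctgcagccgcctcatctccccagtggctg
Maip1: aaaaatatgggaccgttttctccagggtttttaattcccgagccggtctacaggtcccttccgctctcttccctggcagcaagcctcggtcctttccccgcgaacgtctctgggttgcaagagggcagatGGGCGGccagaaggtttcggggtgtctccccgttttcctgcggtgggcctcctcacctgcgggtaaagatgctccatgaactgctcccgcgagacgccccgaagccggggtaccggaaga
RefSeq promoters were matched for 9 of the 10 genes. Each motif was searched on both strands, and matches of different motifs did not overlap in these windows. The GC box core occurred in 6 of the 9 windows (Tstd1, Grifin, Cidea, Ncaph, Setd1b and Maip1), against 30.5% of 33469 promoter windows of this length. The CCAAT box, spelled so, occurred in 2 of the 9 (Elavl1 and Mylk), against 34% of all windows. The TATA box, spelled TATAAA, occurred in 0 of the 9, against 12.9% of all windows. The GC content of the 3 windows shown was 48.4% for Tstd1, 61.6% for Grifin and 60.4% for Maip1, against a median of 51.2% over all windows. Chromosome 12 holds 3 of the genes (Grifin, Setd1b and Elavl1).

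Markers set the NIL and most PVN and SON arrays apart as labelled, whereas the catecholamine markers did not set the RVLM apart. PVN array 3 went against its label on the parvocellular list and departed from the other PVN arrays on several more lists. The summed intensity of vasopressin, oxytocin and prodynorphin lay between 3109 and 3875 in NIL, 8100 and 11104 in PVN, and 10794 and 12987 in SON, and did not exceed 128 in SHR RVLM or 129.7 in WKY RVLM. The sum of 5 melanotroph and anterior pituitary markers lay between 3191 and 11853 in NIL and did not exceed 195 in any other group. The 3 catecholamine neuron markers on the array (Th, Dbh and Pnmt) had sums between 279 and 433 for the RVLM of SHR and between 255 and 391 for that of WKY, below the 442 to 555 of SON. No marker of the 13 cell type lists was at 0. In the RVLM 1 of the 52 tested markers was called, Ttr of the choroid plexus, at −1.11 (limma, adjusted p = 0.0485), with the summed meningeal and choroid plexus markers at 2578 to 4006 for SHR and 3174 to 5202 for WKY. Their part in the strain differences was not tested. The median intensity of an array was 35.9 to 46.5. The library labelled SHR PVN 3 (PVN array 3) stood apart: its median Spearman correlation with the other PVN arrays was 0.875, against 0.951 to 0.978 for the other 23 arrays with their own groups. Its sum of 3 parvocellular markers (Crh, Trh and Sst) was 319, against 3541 to 4640 on the other PVN arrays and 177 to 223 in SON. Its summed intensity of 9 meningeal and choroid plexus markers was 8678, against 755 to 997 on the other PVN arrays and 6689 to 9875 in SON. Its sum for 10 smooth muscle and pericyte markers was 1374, against 306 to 445 on the other PVN arrays. Results that use it are given with and without it where it changes them.

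Most of the 10 genes lay below the WKY RVLM level in the other SHR structures as well. All arrays of a structure lay below the lowest WKY RVLM array for 8 of the 10 genes in NIL (all but Tstd1 and Setd1b), for 6 in PVN (Tstd1, Grifin, Prss35, Ncaph, Maip1 and Mylk) and for 8 in SON (all but Cidea and Mylk). Among all 10415 genes tested in the RVLM, the same held for 27.2% in NIL, 15.3% in PVN and 19.9% in SON. Among the 84 genes called lower in SHR RVLM with groups that did not overlap, which were chosen on the same WKY arrays, it held for 59.5%, 42.9% and 59.5%. Grifin, Prss35, Ncaph and Maip1 lay below every WKY RVLM array on all 14 arrays of the 3 structures, which was so for 10.1% of all genes and for 31.0% of the 84. Without PVN array 3 the count was 6, with Hmces and Elavl1 added, against 11.3% of all genes and 40.5% of the 84. In PVN alone, Hmces and Elavl1 likewise lay below every WKY RVLM array on the other 4 arrays, so PVN array 3 alone kept them out of the PVN count. The 84 genes hold the 10, and all of these comparisons share the 5 WKY arrays. Positions and overlaps of arrays, here and below, use the deposited intensities without array medians set equal. With medians set equal, Tstd1 also lay below every WKY RVLM array on all 5 NIL, 5 PVN and 4 SON arrays. In PVN, Setd1b then lay below on all 5 arrays and Mylk on 4 of 5.

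**Figure D1:**
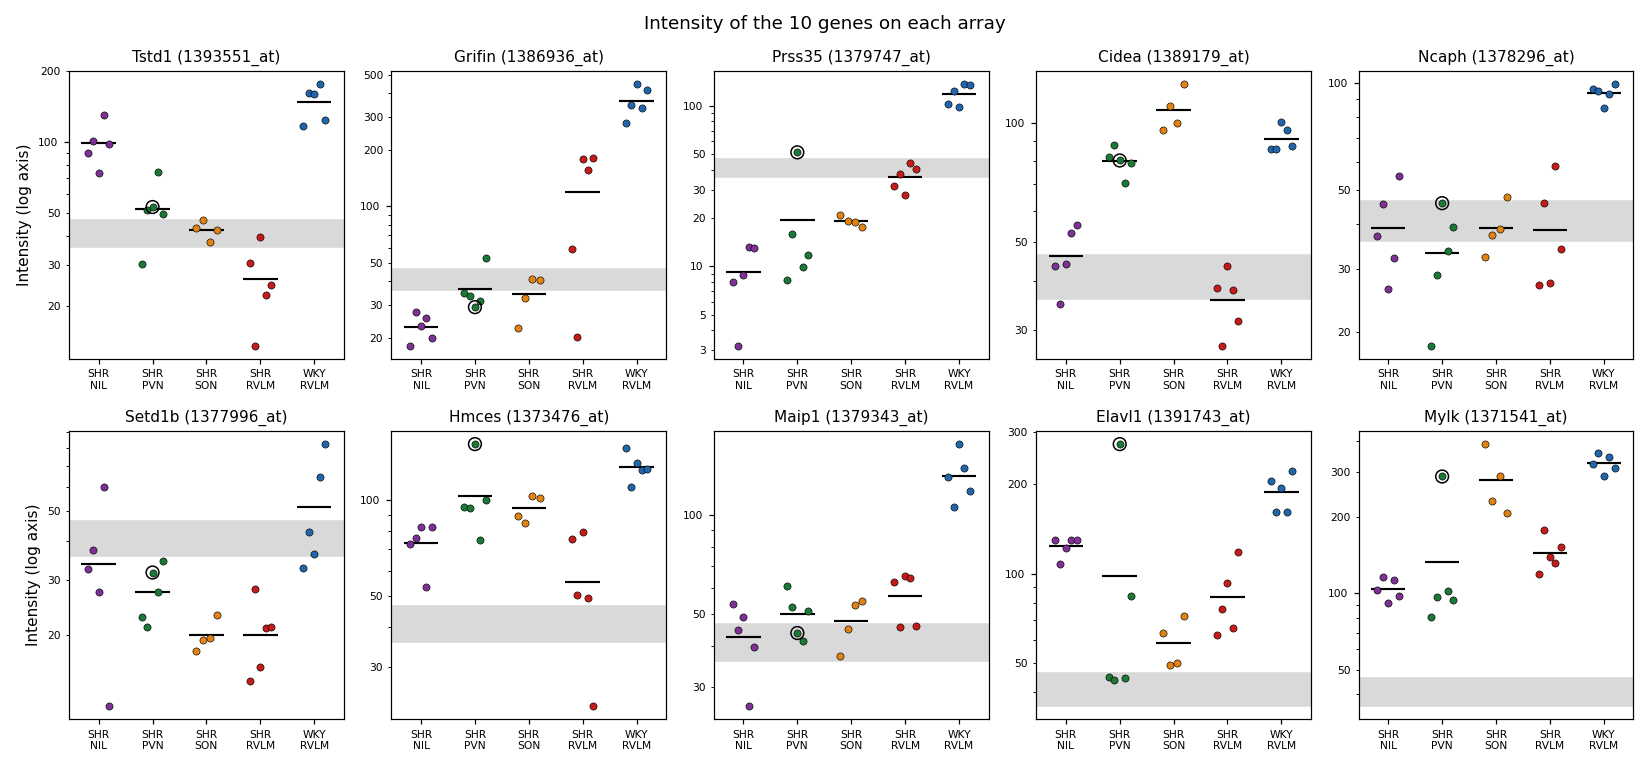
Intensity of the 10 genes on each of 24 arrays (log axis), by group, with 1 point per array and a bar at the group mean; the PVN point with a ring is PVN array 3 and the grey band spans the array medians, 35.9 to 46.5. Grifin, Prss35, Ncaph and Maip1 lie below the WKY RVLM points on every SHR array, whereas the SON points of Cidea and 1 SON point of Mylk reach the WKY range or beyond.

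The median of the 10 differences from the WKY RVLM mean was −1.27 in NIL, −1.52 in PVN, −1.49 in SON and −1.36 in SHR RVLM, on the log2 scale. The same median over all genes tested was −0.0064 in NIL, −0.013 in PVN, −0.015 in SON and −0.035 in SHR RVLM. The 10 genes were chosen for WKY RVLM values above those of SHR RVLM, and every difference here uses those same WKY arrays. Medians below 0 for the 10 are therefore at least partly built in by the choice. Behind these medians the genes differed widely. The differences ran between −4.11 (Grifin) and −0.71 (Tstd1) in NIL, between −3.42 (Grifin) and −0.27 (Cidea) in PVN, and between −3.54 (Grifin) and 0.13 (Cidea) in SON. On the probe set that chose each gene, WKY RVLM had the highest mean log2 intensity for 9 of the 10 genes and SON for Cidea. Next after WKY RVLM came SHR RVLM for Grifin, Prss35, Ncaph and Maip1, NIL for Tstd1, Setd1b and Elavl1, PVN for Hmces and SON for Mylk. The arrays of that next group stayed clear of the WKY arrays for Grifin, Prss35, Ncaph, Maip1 and Elavl1 and overlapped them for Tstd1, Setd1b, Hmces and Mylk. The overlap rested on a single array for Tstd1 (NIL array 4), Hmces (PVN array 3) and Mylk (SON array 1), and the others of the group lay below WKY. In bulk tissue, fewer cells of a type and less RNA per cell cannot be told apart.

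**Figure D2:**
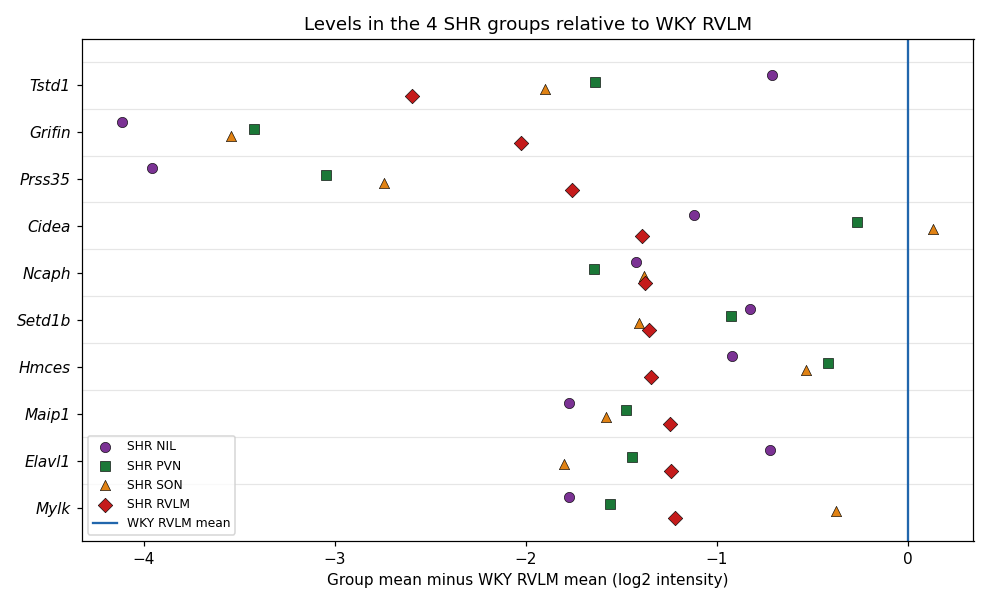
Mean log2 intensity of each gene in NIL (circles), PVN (squares), SON (triangles) and RVLM (diamonds) of SHR, minus the WKY RVLM mean (line at 0), for the probe set that chose the gene. Grifin and Prss35 lie further below WKY RVLM in the 3 other structures than in SHR RVLM, and Cidea comes up to the line in SON.

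Tstd1 had its lowest mean in the SHR medulla, higher means in SON and PVN, and a higher one still in the pituitary. Its intensity was 90.1, 101, 73.9, 129.9 and 98.4 on the NIL arrays, 30.2, 51.5, 52.9, 74.5 and 49.4 on the PVN arrays and 43.1, 46.6, 37.6 and 42.2 on the SON arrays. It was 30.6, 13.6, 39.5, 22.5 and 24.6 in SHR RVLM and 117, 162, 159, 177 and 124 in WKY RVLM. All NIL values lay above the SHR RVLM range and 1 lay within the WKY range, whereas all PVN and SON values lay below the WKY range. Most of the latter also lay above the SHR RVLM range, on 4 of 5 PVN arrays and 3 of 4 SON arrays. The order of the means was WKY RVLM, NIL, PVN, SON and SHR RVLM, and every neighbouring pair in that order overlapped. The difference between SHR RVLM and WKY RVLM was −2.60 on the log2 scale, and −2.78 to −2.36 with each array left out in turn. Over the 14 arrays that the choice did not use, the NIL was higher than the PVN by 0.93 (log2, SE 0.172, adjusted p = 0.000201) and higher than the SON by 1.19 (SE 0.182, adjusted p = 3.64e-05). PVN minus SON was 0.26, with a 95% interval of −0.12 to 0.65 (adjusted p = 0.369), an interval that includes 0.

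Cidea was higher in both hypothalamic nuclei than in the SHR medulla. It read 43.5, 35.02, 44.1, 52.8 and 55.2 in NIL, 82.1, 87.7, 80.4, 70.6 and 79.2 in PVN, and 96.1, 110.4, 99.9 and 125 in SON. In the medulla it read 38.4, 27.4, 43.7, 37.8 and 31.7 in SHR and 86.0, 85.8, 101, 95.9 and 87.2 in WKY. All PVN and SON arrays lay above the SHR RVLM range, and 2 SON arrays lay above the highest WKY array. The NIL overlapped SHR RVLM. NIL minus PVN was −0.85 (log2, SE 0.148, adjusted p = 0.000108) and NIL minus SON −1.25 (SE 0.157, adjusted p = 4.10e-06). PVN minus SON was −0.40 with an interval of −0.73 to −0.069, and adjusted p = 0.101. Cidea is abundant in brown fat, and the summed intensity of 6 adipocyte markers lay between 221 and 298 in NIL, 142 and 264 in PVN, 164 and 222 in SON, 149 and 177 in SHR RVLM, and 95.5 and 147 in WKY RVLM. Of these markers 2 were tested in the RVLM and limma called 0, with Fabp4 at 0.59 (adjusted p = 0.229) and Adipoq at 0.16 (adjusted p = 0.874). The part of such cells in the Cidea values was not tested.

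Grifin was high in the WKY medulla, lower in the SHR medulla and lower still in the means of NIL, PVN and SON, although 12 of their 14 arrays lay within the wide SHR RVLM range. The intensities were 18.1, 27.5, 23.1, 25.5 and 20.0 in NIL, 34.6, 33.2, 29.1, 31.2 and 53.2 in PVN, and 22.6, 32.7, 40.8 and 40.6 in SON. SHR RVLM had 59.1, 20.1, 178, 156 and 181, and WKY RVLM 278, 346, 448, 334 and 415. Within the SHR medulla array 2, at 20.1, lay among the values of the other structures, array 1, at 59.1, lay just above their highest, 53.2, and arrays 3, 4 and 5 lay between 156 and 181. All 5 lay below WKY. Leaving out 1 array moved the difference of −2.02 between −2.29 and −1.46. NIL minus PVN was −0.69 (log2, SE 0.219, adjusted p = 0.0135). NIL minus SON was −0.57 (SE 0.233, adjusted p = 0.0520), and −0.75 (adjusted p = 0.0172) without SON array 1. At these intensities, under or near the array medians in NIL, PVN and SON, such differences are between dim signals.

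Prss35 was lower in NIL, SON and all but 1 PVN array than in the medulla of either strain. NIL arrays had 7.94, 3.20, 8.88, 13.2 and 13.1, PVN arrays 8.24, 15.99, 51.3, 9.96 and 11.8, and SON arrays 20.8, 19.2, 18.8 and 17.5. SHR RVLM arrays had 31.6, 37.5, 27.7, 43.8 and 40.2, and WKY RVLM arrays 102, 123, 98.9, 137 and 135. All NIL and SON arrays lay below the SHR RVLM range, and so did every PVN array but the third, at 51.3. The strain difference in the medulla was −1.76. The probe set was below the intensity filter over the 14 NIL, PVN and SON arrays and was not tested there.

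Among the genes of chromatin and DNA, Ncaph had overlapping values in the 4 SHR groups. It had 37.1, 45.6, 26.3, 32.3 and 54.7 in NIL, 18.3, 28.9, 45.9, 33.7 and 39.2 in PVN, and 32.4, 37.4, 38.8 and 47.9 in SON. In the medulla it had 27.1, 45.9, 27.4, 58.4 and 34.0 in SHR and 95.9, 94.7, 85.1, 92.9 and 99.2 in WKY. None of the 4 reached WKY RVLM. PVN minus SON was −0.26 (95% interval −0.79 to 0.27, adjusted p = 0.537), NIL minus PVN 0.22 (−0.28 to 0.72, adjusted p = 0.450) and NIL minus SON −0.042 (−0.57 to 0.48, adjusted p = 0.907), so differences between SHR structures above about 0.79 lay outside all 3 intervals. Condensin compacts chromosomes for division, and the summed intensity of 9 markers of dividing cells lay between 175 and 216 in the SHR medulla and between 164 and 211 in that of WKY, which overlap. In PVN that sum was 589 to 711 on 4 arrays and 175 on PVN array 3, whose Ncaph value of 45.9 was the highest of the PVN. Of the 3 dividing cell markers tested for PVN minus SON, 1 was called, Aurkb at 2.99 (limma, adjusted p = 0.00393), while Birc5 was at 0.32 (adjusted p = 0.317) and Ccnb1 near 0, so that sum is no measure of dividing cells in general. 

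Setd1b had NIL values that overlapped those of the WKY medulla. Its values were 32.5, 37.5, 27.4, 59.7 and 11.8 in NIL, 22.8, 21.1, 31.7, 27.4 and 34.4 in PVN, and 17.7, 19.2, 19.4 and 23.1 in SON. They were 14.2, 28.0, 15.7, 21.0 and 21.1 in SHR RVLM and 32.7, 42.9, 36.3, 64.6 and 82.3 in WKY RVLM. NIL spread over both strains' ranges in the medulla, while SON lay within the SHR RVLM range on all 4 arrays. Setd1b was under the filter over the NIL, PVN and SON arrays and has no test there.

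Hmces lay between the strains in SON, and overlapped the SHR medulla in NIL and on 1 PVN array. It had 72.7, 76.1, 82.2, 53.6 and 82.1 in NIL, 94.8, 94.3, 149, 75.2 and 99.8 in PVN, and 89.0, 84.4, 103 and 102 in SON. It had 75.7, 50.4, 79.4, 49.3 and 22.7 in SHR RVLM and 145, 109.8, 130.1, 124 and 125 in WKY RVLM. All SON arrays lay above the SHR RVLM range and below the WKY range, and PVN array 3 lay above the highest WKY array. Of the NIL arrays 3 lay within the SHR RVLM range and 2 above it. The 22.7 on SHR RVLM array 5 weighed on the strain difference of −1.34, which was −1.07 without it. NIL minus PVN was −0.51 (log2, SE 0.191, adjusted p = 0.0331), a call that was lost without NIL array 4 (−0.37, adjusted p = 0.0998), PVN array 1 (−0.47, adjusted p = 0.0645) or PVN array 3 (−0.34, adjusted p = 0.0772).

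Maip1, the mitochondrial gene, was as low in the other structures as in the SHR medulla. NIL had 53.5, 44.7, 48.8, 26.2 and 39.6, PVN 60.8, 52.5, 43.7, 41.2 and 50.98, and SON 37.2, 44.9, 53.1 and 54.7. SHR RVLM had 62.6, 45.5, 65.0, 64.4 and 45.8, and WKY RVLM 130.5, 106, 164, 139 and 118. No SHR array exceeded 65.0 and no WKY array was under 106. PVN minus SON was 0.10 (95% interval −0.39 to 0.59, adjusted p = 0.819), NIL minus PVN −0.30 (−0.76 to 0.17, adjusted p = 0.269) and NIL minus SON −0.19 (−0.69 to 0.30, adjusted p = 0.520).

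Elavl1 and Mylk have several probe sets, and these differed in what they showed. For Elavl1 the probe set 1391743_at, which chose the gene, had 129.8, 108, 122, 129.5 and 130.3 in NIL, 45.1, 44.0, 273, 44.7 and 84.2 in PVN, and 63.1, 49.5, 50.2 and 71.9 in SON. It had 62.3, 76.4, 92.9, 65.9 and 119 in SHR RVLM and 205, 162, 194, 161 and 222 in WKY RVLM. Every SHR array but PVN array 3 lay below the WKY range. A second probe set, 1375892_at, had 354, 349, 368, 275 and 339 in NIL, 113, 107, 193, 116 and 109.6 in PVN, and 117, 111, 116 and 111 in SON. It had 94.2, 112, 122, 106 and 127 in SHR RVLM, against 99.7, 113, 133, 130.0 and 109.7 in WKY RVLM. The strains overlapped on it and differed by −0.091. On the third, 1393188_at, SHR RVLM had 47.1, 78.3, 56.9, 70.7 and 113, against 94.8, 69.2, 90.0, 115 and 104 in WKY RVLM. These also overlapped, with a difference of −0.44, whereas 1391743_at differed by −1.24.

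The strain difference of Elavl1 was thus largest on 1391743_at and nearest 0 on 1375892_at. On 1393188_at it lay between −0.64 and −0.29 with each array left out in turn. The WKY arrays made 1391743_at the brightest probe set and so the one that chose the gene. Its mean log2 intensity was 7.61 in WKY RVLM, against 6.93 for 1375892_at. In SHR RVLM 1375892_at was the brighter, at 6.84 against 6.37. The gap between 1391743_at and 1375892_at within an array, which does not depend on the scaling of that array, averaged −1.44 ± 0.23 in NIL (SD, n = 5), −0.77 ± 0.82 in PVN (n = 5), −0.97 ± 0.27 in SON (n = 4) and −0.47 ± 0.23 in SHR RVLM (n = 5) on the log2 scale, against 0.68 ± 0.33 in WKY RVLM (n = 5). Levels of different probe sets are not on 1 scale, so the gap is compared between groups only. It was below 0 on every SHR array except PVN array 3, at 0.50, and was 0.31 or more on every WKY array. The gap to the third probe set did not part SHR from WKY in this way. Between 1391743_at and 1393188_at it averaged 1.88 ± 0.47 in NIL, 1.07 ± 1.16 in PVN, 1.42 ± 0.31 in SON and 0.21 ± 0.34 in SHR RVLM, against 1.00 ± 0.30 in WKY RVLM. On 1393188_at itself the intensity was 23.8 to 52.0 in NIL, 26.6 to 53.1 in PVN and 20.4 to 23.4 in SON, so all 14 arrays lay below the lowest WKY RVLM array. What sets these gaps was not tested. Between SHR structures all 3 probe sets gave NIL above SON, by 1.55 (1375892_at, adjusted p = 1.21e-06), 1.08 (1391743_at, adjusted p = 0.0319) and 0.63 (1393188_at, adjusted p = 0.0337). The last 2 calls were lost in most fits that left out 1 array, with adjusted p up to 0.0788 and 0.0878, by leaving out NIL array 1, 3, 4 or 5 or SON array 2 or 3 for 1391743_at, and NIL array 2, 3 or 4 or any SON array for 1393188_at. NIL was above PVN by 1.39 on 1375892_at (SE 0.165, adjusted p = 1.63e-06). On 1391743_at that difference was 0.72 (adjusted p = 0.111), and 1.22 (adjusted p = 5.87e-06) without PVN array 3, while 1393188_at gave −0.078 (adjusted p = 0.783).

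**Figure D3:**
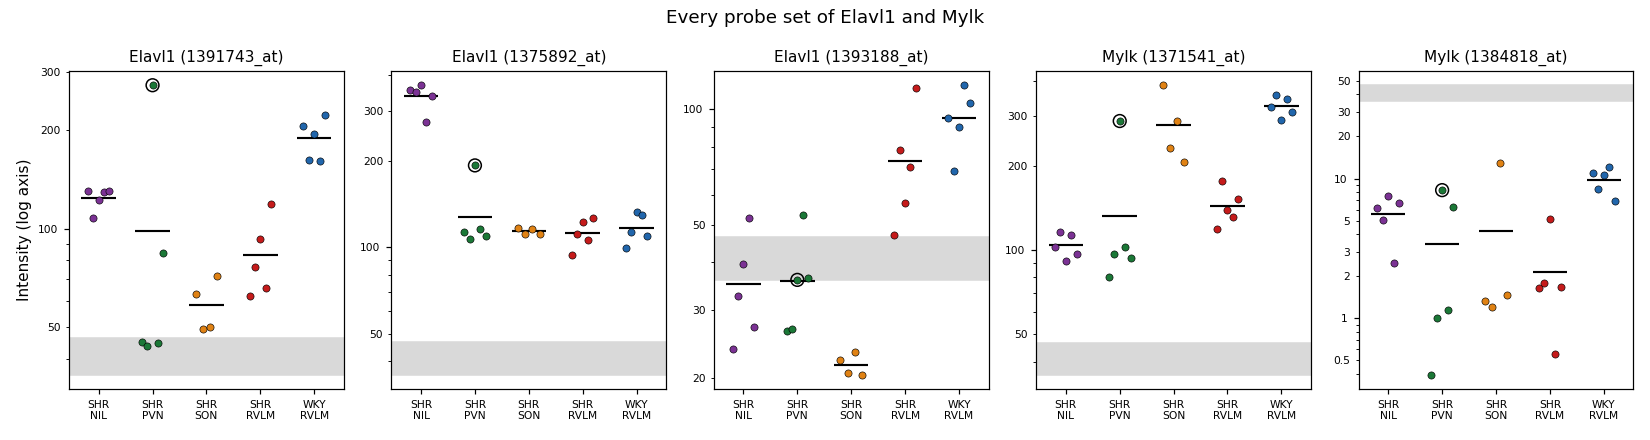
Intensity of the 3 probe sets of Elavl1 and the 2 of Mylk on each array (log axis), with points, bars, ring and band as in the plot of the 10 genes. Elavl1 separates the strains in the RVLM on 1391743_at and overlaps on 1375892_at and 1393188_at, and the second Mylk probe set lies under the array medians in all groups.

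Mylk was lower in SHR than in WKY medulla on the probe set that chose it, 1371541_at, and SON had the next highest mean on it. A second probe set was too dim to weigh much. On 1371541_at, NIL arrays had 103, 116, 91.2, 113 and 97.1, PVN arrays 80.3, 96.4, 289, 102 and 93.7, and SON arrays 387, 231, 289 and 207. SHR RVLM arrays had 119, 177, 139, 131 and 153, and WKY RVLM arrays 325, 359, 291, 345 and 311. All NIL arrays and 4 of 5 PVN arrays lay below the SHR RVLM range, all SON arrays and PVN array 3 lay above it, and SON array 1 exceeded every WKY array. The second probe set, 1384818_at, was dim: 1.65, 1.78, 5.13, 0.557 and 1.67 in SHR RVLM, against 11.04, 8.35, 10.5, 12.2 and 6.91 in WKY RVLM. The groups did not overlap, and the difference of −2.53 fell to −0.53 with 16 added to each intensity, so its size depends on how dim signals are treated. In NIL, PVN and SON this probe set ranged between 0.396 and 12.8, under the intensity filter, and 3 SON arrays were at 1.21 to 1.47.

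Mylk is a gene of contractile cells. Sums of smooth muscle and of meningeal markers were high beside it in SON and on PVN array 3, and the meningeal sum was also high in NIL (5847 to 7170), where Mylk was low. The summed intensity of 10 smooth muscle and pericyte markers, all on the array and none at 0, lay between 534 and 598 in NIL, 306 and 1374 in PVN, 640 and 1149 in SON, 463 and 534 in SHR RVLM, and 486 and 562 in WKY RVLM. The 4 SON arrays stood in the same order on Mylk and on the sum, at 387, 289, 231 and 207 against 1149, 971, 727 and 640, and PVN array 3 was the highest PVN array on both. In the medulla the sums of the strains overlapped, and of the 8 markers tested 0 were called by limma. Their median strain difference was −0.17, against −0.035 over all genes tested. On the 14 arrays, PVN minus SON was −1.19 for 1371541_at (SE 0.291, adjusted p = 0.0133). It was −1.005 (adjusted p = 0.0531) without SON array 1 and −1.53 (adjusted p = 7.05e-07) without PVN array 3. NIL minus SON was −1.40 (SE 0.291, adjusted p = 0.000726). For PVN minus SON limma called 0 of the 7 smooth muscle and pericyte markers tested (median −0.40), and 6 of the 8 meningeal and choroid plexus markers tested were lower (median −2.71). The part of these cells in the structure differences was not tested.

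**Figure D4:**
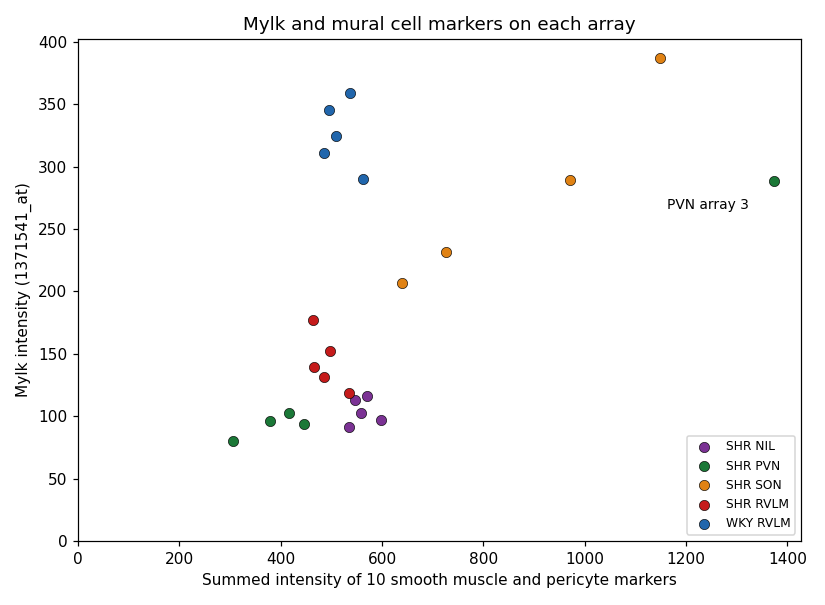
Mylk intensity (1371541_at) against the summed intensity of 10 smooth muscle and pericyte markers, 1 point per array, both on linear axes. The SON points rise together on both axes, and PVN array 3 lies far to the right of the other PVN points. SHR and WKY RVLM points overlap in part on the marker sums and lie apart on Mylk.

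Over the 14 arrays, 10 of the 13 probe sets passed the intensity filter. PVN minus SON called 1 of them (Mylk 1371541_at), against 13.0% of all 18625 probe sets. NIL minus PVN called 5 (Tstd1 and Elavl1 1375892_at higher, Grifin, Cidea and Hmces lower), against 54.2%. NIL minus SON called 6 (Tstd1 and the 3 of Elavl1 higher, Cidea and Mylk lower), against 47.9%. These shares are near the background of each comparison, and the NIL differed from both nuclei for about as large a part of all probe sets. The last 2 comparisons share the NIL arrays. Among the genes themselves, the 45 pairwise correlations over these 14 arrays ran between −0.89 (Tstd1 with Cidea) and 0.69, with a median of 0.11. The 14 points share 3 structures and PVN array 3, and these correlations are a description.

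**Figure D5:**
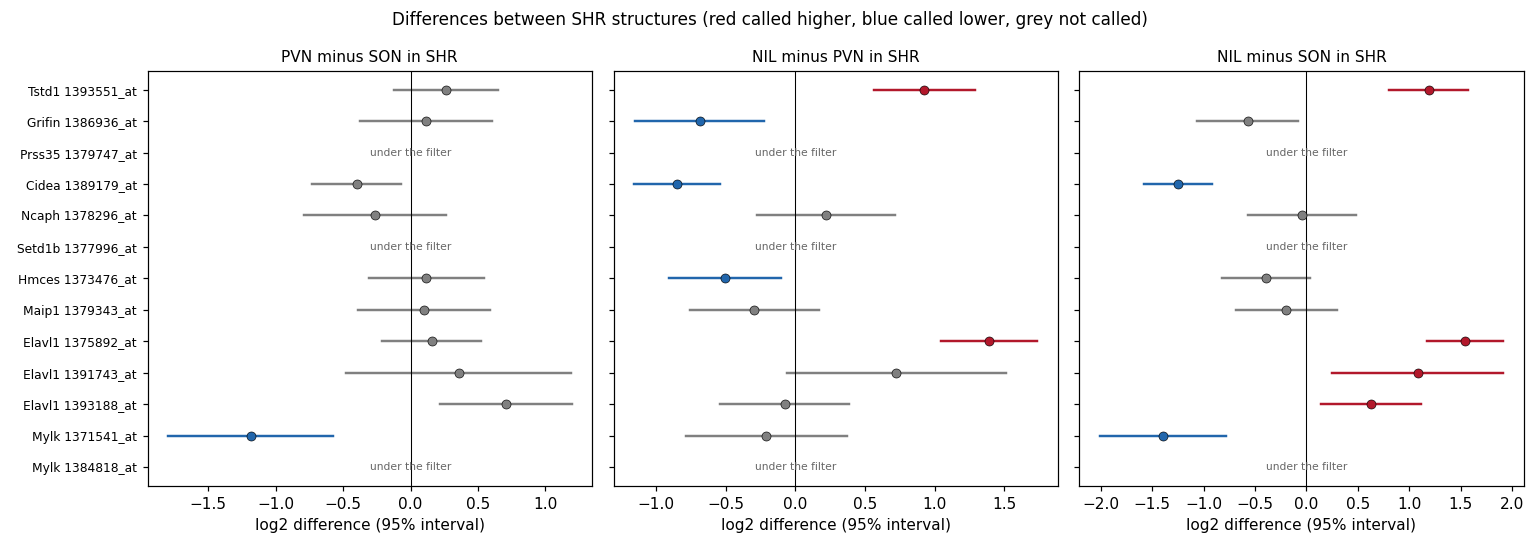
Log2 differences between SHR structures with 95% intervals (limma, 14 arrays) for the 13 probe sets, red where called higher, blue where called lower and grey where not called; 3 probe sets were under the filter. NIL lies above PVN and SON for Tstd1 and for Elavl1 1375892_at and below both for Cidea, and Mylk is lower in PVN and NIL than in SON.

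Families and partners of the 10 genes were read from 10 lists of 112 genes, and none was called between strains. In the RVLM limma called 0 of the 83 tested members in either direction, against 1.41% of all genes, and 5 had an unadjusted p under 0.05 (6.02%, against 9.17% of all genes). Their median difference was −0.045, against −0.035 over all genes tested. None of the 9 rhodanese and sulfide genes tested was called, including Tst (−0.12) and Mpst (−0.14), the mitochondrial and cytosolic sulfurtransferases, nor any of 6 galectin genes, 7 lipid droplet genes or 10 condensin and cohesin subunits. Of the 12 tested genes of complexes that methylate lysine 4 of histone H3, 0 were called, with Setd1a, the paralog of Setd1b, at −0.12. The neuronal relatives of Elavl1 were at 0.051 (Elavl2), 0.0050 (Elavl3) and 0.11 (Elavl4). Of 12 tested genes of myosin light chain control and contraction 0 were called, with Acta2, smooth muscle actin, at −0.31 (adjusted p = 0.378) and Myh11, smooth muscle myosin, at 0.014. The serine protease list had 3 tested genes and the lists for the m-AAA protease and for abasic site repair 7 each, and limma called 0 in each of these.

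Between SHR structures the same lists were called about as often as all genes, or less. NIL minus PVN called 42 of 85 list genes, 26 higher and 16 lower, against 56.5% of all genes. NIL minus SON called 40, 24 higher and 16 lower, against 50.6%. PVN minus SON called 12, 5 higher and 7 lower, against 14.4% of all genes. Elavl2, Elavl3 and Elavl4 were lower in NIL than in PVN, with differences of −1.95, −2.64 and −2.21, while Elavl1 1375892_at was higher. The sum of 5 neuron markers was 1914 to 2152 in NIL and 4435 to 5221 in PVN. Tst fell by 0.60 in NIL relative to PVN and Mpst was higher by 0.98, beside the higher Tstd1. Plau, the urokinase plasminogen activator, was higher in NIL than in PVN by 5.01 and Htra1, a secreted serine protease, by 1.28, while Prss35 had its lowest mean there. Myl9, a smooth muscle myosin light chain, was lower in PVN than in SON, as Mylk was, with a difference of −1.32. Of the 13 genes of myosin light chain control and contraction tested there, 2 were called lower, 1 higher and 10 not called. Their median was −0.19. Lgals1, a galectin of connective tissue and vessels, had a PVN minus SON difference of −1.77.

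The genes next to the 10 on their chromosomes were examined as well. Of the 100 nearest genes, 5 on each side in the GRCr8 gene order, 58 were tested in the RVLM and 1 was called lower, against 0.893% of all genes. It was Rhof, a neighbour of Setd1b, at −0.50 (SE 0.103, adjusted p = 0.0141), named after its value was seen. The median of the 58 was −0.023, and 8 had an unadjusted p under 0.05, a threshold that 9.17% of all genes passed.

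For each gene the probe set whose log2 intensity followed it most closely over the 24 arrays was found among about 13885 single-gene probe sets. For Maip1 this was Grifin (r = 0.87), another of the 10. Over the 14 arrays that the choice did not use, r between these genes was 0.46. The others were Eif3c for Tstd1 (r = 0.78), Tspan15 for Grifin (0.91), Thy1 for Prss35 (0.92), Ndufv3 for Cidea (0.90), Haghl for Ncaph (0.83), Arhgef28 for Setd1b (0.67), Ercc8 for Hmces (0.78), Zbtb20 for Elavl1 (0.88) and Retsat for Mylk (0.88). The arrays fall into 5 groups, so these correlations mostly measure group levels. The 10 RVLM arrays that chose the genes are among the 24, so a partner that is lower in SHR RVLM is built into the search. All correlations changed by little without PVN array 3, the largest shift being for Ercc8, at 0.76.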

How the data were processed

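The deposited intensity values are linear probe set signals, and GCOS 1.2 is named per the submitters' processing notes, with its parameters and detection calls not given in the sources used here. The 2% trimmed mean of each array was close to 100 (99.6 to 99.8). Of 31099 probe sets, 57 controls were left out, and gene names came from the array annotation (20826 with 1 gene, 436 with several, 9780 with none). The probe set that stands for a gene in the RVLM is its brightest one over the arrays of both strains there. For Elavl1 this was 1391743_at through its WKY arrays. Differences use log2 of the deposited intensity, nothing added, with array medians set equal. Probe sets above the 40th percentile of mean log2 intensity (18625 per fit, above an intensity of 26.3 over the RVLM arrays and 26.5 over the others) entered limma 3.58.1 (R 4.3.3; lmFit, then eBayes allowing for a trend in intensity) with calls below 0.05 after Benjamini-Hochberg adjustment over all probe sets. The strain fit held the 10 RVLM arrays and the structure fit the 14 SHR arrays of NIL, PVN and SON. SE is that of the log2 difference. The fits were tested on simulated data. Samples were grouped by strain and structure, with an unnumbered title taken as number 1. Promoters were from RefSeq (GRCr8), and the build of the array annotation is not named. The 10 genes, their families and the cell type markers were chosen with earlier results of these data known. All 10 genes are named, with list members picked as relatives of a gene described, and with the closest probe set by Pearson's r for each gene. Alternatives were the scaling, quantile normalization, pseudocounts of 16 and 64, the filter, the variance model, arrayWeights, the replicate number as a block, all 24 arrays together and each array left out. The count without PVN array 3 was added after the data had been seen.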

Additional observations from a re-analysis of the deposited data

Results flagged for a closer look

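Within a group, 7 of 65 probe set and group combinations had an array set apart from the others by Dixon's test at the 95% level, where chance sets apart about 1 in 20. PVN array 3 accounts for 4 of the 7. It read 51.3 for Prss35, against 8.24 to 15.99 on the other PVN arrays, 193 for Elavl1 1375892_at (others 107 to 116), 273 for Elavl1 1391743_at (others 44.0 to 84.2) and 289 for Mylk 1371541_at (others 80.3 to 102). The same array carried the highest PVN sums of meningeal, smooth muscle and oligodendrocyte markers, the last at 6469, and the part of those cells in its values was not tested. PVN array 5 read 53.2 for Grifin, against 29.1 to 34.6 on the others. The dim Mylk probe set 1384818_at read 12.8 on SON array 3, against 1.21 to 1.47 on the others, and 5.13 on SHR RVLM array 3, against 0.557 to 1.78.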

How the results depend on the processing

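The count of probe sets called between strains in the RVLM was 295, and lay between 212 and 347 over the alternatives. PVN minus SON called 2427, 4534 with arrayWeights, and between 1324 and 4038 with 1 array left out, the lowest without SON array 3 (1324, and 1596 without SON array 4 or 1607 without SON array 1) and the highest without PVN array 3. NIL minus PVN called 10100 (9374 to 10818 with 1 array left out) and NIL minus SON 8929 (7921 to 8634). The titles do not say whether arrays with the same replicate number share rats. Correlations of the deviations between arrays of equal number lay between −0.087 and 0.17, which cannot decide this. With the number as a block the counts were 245, 2434, 10264 and 8891, and of the 30 structure differences of the 10 genes the block changed 1 call, Elavl1 1393188_at for PVN minus SON (0.75, adjusted p = 0.0460). Of those 30, 12 were called and none of these reversed under an alternative. The 8 that reversed were not called. With 1 array left out, PVN minus SON ran between −0.058 and 0.22 for Grifin, −0.045 and 0.26 for Hmces, −0.024 and 0.21 for Maip1, −0.018 and 0.23 for Elavl1 1375892_at, and −0.14 and 0.58 for Elavl1 1391743_at. NIL minus PVN ran between −0.21 and 0.035 for Elavl1 1393188_at and −0.32 and 0.13 for Mylk 1371541_at, and NIL minus SON between −0.17 and 0.081 for Ncaph. With arrayWeights, PVN minus SON was −0.017 for Hmces and −0.029 for Elavl1 1375892_at, and NIL minus PVN was 0.027 for Mylk 1371541_at. The causes were not tested. With all 24 arrays in the fit, NIL minus PVN lost its call for Grifin (adjusted p = 0.143) and Hmces (0.0686). Hmces also lost it with arrayWeights (0.0613), and Elavl1 1393188_at lost NIL minus SON without a filter (0.0591). Settings other than leaving out an array also added calls: PVN minus SON for Elavl1 1393188_at (0.70, adjusted p = 0.0534 as reported; past the threshold also with quantile normalization, a pseudocount of 16, no intensity trend and all 24 arrays) and Cidea (quantile normalization, a pseudocount of 64), NIL minus SON for Hmces (quantile normalization, arrayWeights) and Grifin (a pseudocount of 16, no intensity trend, arrayWeights), and NIL minus PVN for Elavl1 1391743_at (arrayWeights). The falls of the 10 genes in the medulla kept their sign throughout, and a pseudocount of 64 brought Tstd1 to −1.24. Dim signals limit Prss35, Setd1b, the second Mylk probe set and, in the SHR medulla, Tstd1, which lay under the array median on 4 of 5 arrays there. The mean intensities of Tstd1 (26.1) and Setd1b (20.0) in SHR RVLM were under the filter level of 26.3. Both genes therefore entered the RVLM fit through their WKY arrays.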
